A study of Homo sapiens with 14 samples.

Results

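The miRNAs described here are the mature products of 4 human hairpins, miR-423, miR-484, miR-191 and miR-425, which are often used as reference miRNAs when small RNA is measured by qPCR. They were chosen by name and by no measured value, though earlier results of these data were known. They make up 7 of the 2588 mature miRNAs in each count table: hsa-miR-423-5p, hsa-miR-423-3p, hsa-miR-484, hsa-miR-191-5p, hsa-miR-191-3p, hsa-miR-425-5p and hsa-miR-425-3p. The study asked which miRNAs carry internal N7-methylguanosine (m7G), a guanine with a methyl group on its ring, and the question here was whether the reference miRNAs stayed level in the pulldown. The cells were A549, a line grown from a human lung tumour. BoRed-seq compared 2 Red libraries with 2 Ctrl libraries, all from decapped RNA. Red RNA was reduced with borohydride, which leaves a baseless site where m7G stood. Ctrl RNA went through the same coupling to a biotin probe and capture on streptavidin without active reduction. m7G-RIP-seq compared 5 IP libraries, from decapped RNA pulled down with an antibody against m7G, with 5 Input libraries of the decapped RNA before pulldown. All groups came from this single line, so no value speaks for other lung cells.

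A hairpin is cut into a duplex of which an Argonaute protein keeps mostly 1 strand, and the suffix of a mature miRNA names the arm, 5p or 3p, that it came from. The kept strand finds its targets mainly through its seed, here bases 2 to 8. miR-191 and miR-425 are cut from a shared transcript, so their hairpins are made together. miR-484 is unusual in that its precursor is a short capped transcript that is made without the nuclear enzyme Drosha. A reference miRNA is useful in a pulldown only where the pulldown neither takes nor loses it, since every other miRNA is then read against it. Level, enriched and depleted are relative here, because each library is scaled to the middle of its miRNAs. A level miRNA is one that moved like that middle, and how much of it was captured was not measured.

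The mature sequences, from RefSeq on GRCh38, have the seed in capitals. They are shown for the guanines that could carry m7G, and for the complementarity between the miR-423 arms and the miRNAs annotated opposite to them.
hsa-miR-484: uCAGGCUCaguccccucccgau
hsa-miR-191-5p: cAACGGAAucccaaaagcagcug
hsa-miR-191-3p: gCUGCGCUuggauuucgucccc
hsa-miR-425-3p: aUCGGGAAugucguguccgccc
hsa-miR-423-5p: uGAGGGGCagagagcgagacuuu
hsa-miR-423-3p: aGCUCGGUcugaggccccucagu
hsa-miR-3184-3p: aAAGUCUCgcucucugccccuca
hsa-miR-3184-5p: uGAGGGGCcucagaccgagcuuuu
Guanines made up 4 of 22 bases in miR-484, 5 of 23 in miR-191-5p, 6 of 22 in miR-191-3p and 7 of 22 in miR-425-3p. The 6 members shown have 6 different seeds. The seed of miR-423-5p recurs in miR-3184-5p, which lies opposite the other arm of the miR-423 hairpin.

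On GRCh38 the hairpin of miR-425 lay at chr3:49020148-49020234 and that of miR-191 at chr3:49020618-49020709, both on the minus strand, with 383 bases between them. Both were inside DALRD3 on the same strand and overlapped none of its exons in the annotation, so they were intronic, and miR-191 also lay inside a transcript of NDUFAF3 on the other strand. The hairpin of miR-484 lay at chr16:15643294-15643372 on the plus strand, inside an untranslated exon of 1 NDE1 transcript. The hairpin of miR-423 lay at chr17:30117079-30117172 on the plus strand, inside NSRP1, wholly within an untranslated exon of 1 of its transcripts and partly within exons of 2 others, and otherwise intronic.

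Both arms of miR-423 were at 0 in all 14 libraries, and so were both arms of miR-3184, which is annotated on the minus strand of the same place. miR-423-5p and miR-3184-3p occupied the same 23 bases and were complementary over all of them, and miR-423-3p and miR-3184-5p were complementary over 21. The same held widely in these tables. Of 78 mature miRNAs for which every locus overlapped a mature miRNA on the opposite strand, 73 were at 0 in all libraries (93.6%), against 615 of 2198 with no such overlap (28.0%). The highest total among the 78 was 5936 counts, for miR-3074-3p. Of 5 miRNAs with only some loci overlapped, 3 were at 0 in all libraries. Another of these 5, miR-24-3p, which has a further locus without an overlap, reached 103170 counts in a library. The libraries kept strand, but whether the counting used it is not given in the sources used here. A count of 0 at such a place is therefore not read as a level of miR-423, and its part in the zeros was not tested. The remaining 5 members had counts in every library and carry the results below.

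Library totals ran from 4678102 to 5874405 counts in Ctrl, 242085 to 277498 in Red, 7097379 to 14874685 in Input and 2854811 to 6452759 in IP. Together the members took 0.0966 to 0.104% of the counts in Ctrl, 0.147 to 0.184% in Red, 0.396 to 0.571% in Input and 0.929 to 1.11% in IP. A single miRNA, miR-21-5p, took 79.0 to 80.4% of Ctrl counts and 26.7 to 26.9% of Red counts, and 38.0 to 46.3% of Input and 4.64 to 6.27% of IP counts, so the other miRNAs together took a larger share of the counts in both pulldowns. The 6 epithelial marker miRNAs had counts in every group, summing to 174 to 1002 CPM (counts scaled to a fixed library total) over the libraries. The 5 blood markers summed to at most 25.2 CPM. Of the 2 neuron markers, 1 was at 0 in Ctrl, so their sum there was that of a single miRNA. The neuron sum was above the epithelial one in Ctrl (609 to 697 against 193 to 228 CPM). It was below in IP (117 to 145 against 174 to 216 CPM), and the ranges overlapped in Red and Input. In m7G-RIP-seq, replicates 1 to 3 and replicates 4 and 5 stood apart from each other in both groups: chi-square per degree of freedom was 25.8 to 150.2 between libraries of the same set and at least 437.6 across sets. Results that differ between the sets are given with both values. With no molecular identifiers in the tables, intervals on shares cover counting error only.

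miR-191-5p was the most abundant member in every group. miR-425-5p came next in Ctrl and miR-484 in Input, without overlap between these 3 in either group. In Ctrl, miR-191-5p was at 536 ± 121 CPM (SD, n = 2) and ranked between 42 and 52 among the miRNAs of a library. In Input it stood at 3372 ± 540 CPM (SD, n = 5) and ranked between 30 and 32. miR-484 was at 155 ± 24.1 CPM in Ctrl and at 785 ± 70.2 CPM in Input. miR-425-5p was at 294 ± 93.1 CPM in Ctrl and at 532 ± 93.1 CPM in Input. The minor arms were much lower, with miR-425-3p at 14.8 ± 3.18 CPM in Ctrl and 31.2 ± 10.5 CPM in Input and miR-191-3p at 1.66 ± 0.538 CPM in Ctrl and 7.99 ± 1.35 CPM in Input.

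**Figure D1:**
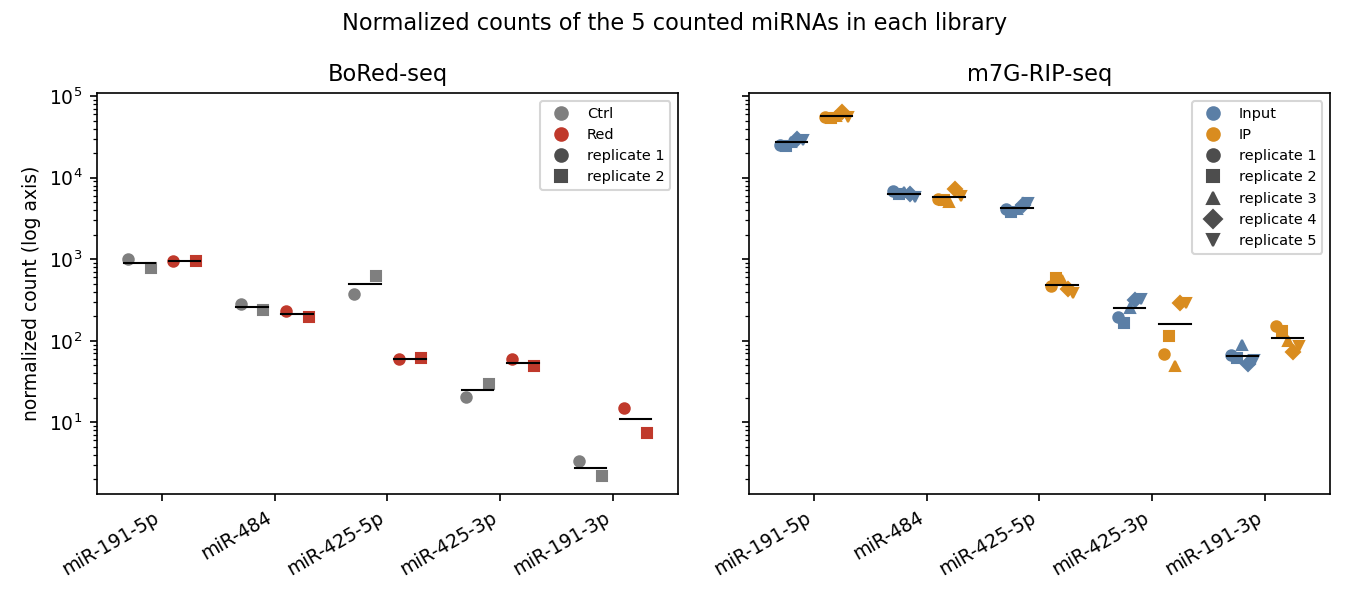
Normalized counts (median-of-ratios scaling, log axis) of the 5 members with counts, 1 point per library with the symbol giving the replicate and a black bar at the group mean. With this scaling miR-484 and, in BoRed-seq, miR-191-5p had close values in pulldown and control, though neither was shown level in BoRed-seq. By contrast, miR-425-5p was about 8 to 9 times lower in both pulldowns (8.27 and 8.89).

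miR-484 came closest to staying level in m7G-RIP-seq, where a change as large as 2-fold, relative to the middle of the table, was rejected. Its normalized counts, that is, counts divided by the DESeq2 size factor of the library, were 6890, 6347, 6621, 6265 and 5803 in Input replicates 1 to 5. In IP they were 5547, 5387, 5047, 7268 and 5896. The groups overlapped, with IP replicate 4 above every Input library and IP replicates 1 to 3 below every one. Enrichment on the log2 scale, IP over Input, was -0.13 ± 0.14 (SE, n = 5 and 5), with a 95% interval from -0.41 to 0.15 and a DESeq2 adjusted p of 0.446. The test of a change smaller than 2-fold gave an adjusted p of 1.8e-07, as it did for 32 of 670 miRNAs (4.78%). It passed in each of the 20 other settings in which this test was run, with adjusted p up to 0.00407, but not at a limit of 1.5-fold, where the adjusted p was 0.182. Replicates 1 to 3 alone gave a log2 enrichment of -0.34 that passed the test for a change (DESeq2 adjusted p = 0.00659), and replicates 4 and 5 alone gave 0.04 (adjusted p = 0.809). Scaling to total counts without miR-21-5p gave -0.51 (adjusted p = 0.000385).

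In BoRed-seq, miR-484 had normalized counts of 279 and 239 in Ctrl and 233 and 193 in Red. Both Red libraries were below both Ctrl libraries, by a small margin. The log2 enrichment, Red over Ctrl, was -0.29 ± 0.35 (SE, n = 2 and 2; 95% interval from -0.98 to 0.40), and it passed neither the test for a change (DESeq2 adjusted p = 0.497) nor the test of a change under 2-fold (adjusted p = 0.722). No miRNA passed the latter test in this assay, 0 of 453 (0.0%), with 18 under an unadjusted p of 0.05, 2 of them members. Level could therefore not be shown for any miRNA with these 4 libraries. The enrichment of miR-484 differed between the assays by -0.16 ± 0.38 (SE), BoRed-seq minus m7G-RIP-seq, with a 95% interval from -0.91 to 0.59 (z test, adjusted p = 0.777). The BoRed-seq enrichment of miR-484 changed in size with the libraries and in direction with the scaling. It was -0.95 and -0.98 without Ctrl replicate 1 or 2, and -0.053 and -0.0042 without Red replicate 1 or 2. Leaving out Ctrl replicate 1 or 2 shifted all miRNAs compared by a median of -0.63 or -0.65. Less that shift, miR-484 was at -0.32 and -0.33. Without Red replicate 1 or 2 it was at -0.33 and -0.18 less the shift. With total-count factors the log2 value was 0.82 (adjusted p = 0.0730), and without miR-21-5p in the total it was -1.03 (adjusted p = 0.0133).

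miR-191-5p was close to level in BoRed-seq but rose in the antibody pulldown. Its normalized counts were 1011 and 783 in Ctrl and 948 and 940 in Red. The Red libraries fell between the Ctrl libraries. The log2 enrichment was 0.07 ± 0.30 (SE, n = 2 and 2), with a 95% interval from -0.51 to 0.65, which stays within 2-fold (DESeq2 adjusted p = 0.850 for a change and 0.259 for a change under 2-fold). In m7G-RIP-seq its normalized counts were 25134, 24817, 27140, 30244 and 29138 in Input replicates 1 to 5. In IP they were 55311, 54656, 57149, 64474 and 55759. Every IP library was above every Input library. This came to a log2 enrichment of 1.07 ± 0.12 (SE, n = 5 and 5), a 2.11-fold rise, with a 95% interval from 0.84 to 1.31 (DESeq2 adjusted p = 1.4e-18). It passed the test in all 21 alternatives run, from 0.70 to 1.41. Replicates 1 to 3 alone gave 1.09 and replicates 4 and 5 alone gave 0.93.

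The enrichment of miR-191-5p was lower in BoRed-seq than in m7G-RIP-seq by 1.00 ± 0.32 (SE) on the log2 scale, with a 95% interval of the signed difference from -1.63 to -0.38 (z test, adjusted p = 0.00682). Of the 384 miRNAs compared between the assays, 146 differed (38.0%), so a difference between the assays was common. A DESeq2 fit of all 14 libraries together gave an interaction term of -1.45 (adjusted p = 2.8e-10). Scaling both assays to total counts gave -0.22 (adjusted p = 0.690), since miR-191-5p was then also enriched in BoRed-seq, at 1.19 (adjusted p = 0.00237). The direction of miR-191-5p in BoRed-seq also turned under other choices, down to -0.69 when Ctrl replicate 2 was left out. That choice shifted all miRNAs compared by a median of -0.65, and less the shift miR-191-5p was at -0.04.

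miR-191-3p, the minor arm of the same hairpin, was counted too rarely for BoRed-seq. It had 12 and 6 counts in Ctrl and 4 and 3 in Red, below the filter of at least 10 counts in 2 libraries, so it was not tested there. With no count filter its log2 enrichment was 1.49 ± 1.58 (SE; DESeq2 adjusted p = 0.474). In m7G-RIP-seq its normalized counts were 67.8, 61.0, 88.9, 51.6 and 58.6 in Input replicates 1 to 5. In IP they were 152, 130, 99.0, 71.9 and 87.6. The groups overlapped, with IP replicates 4 and 5 below Input replicate 3. The log2 enrichment was 0.72 ± 0.29 (SE, n = 5 and 5; 95% interval from 0.15 to 1.30), a rise that passed the test (DESeq2 adjusted p = 0.0259). The call was lost in 11 of 21 alternatives, all with the same direction. Among these were the edgeR quasi-likelihood test (adjusted p = 0.0726), replicates 1 to 3 alone (0.79, adjusted p = 0.101), replicates 4 and 5 alone (0.45, adjusted p = 0.454) and the omission of any of Input replicates 1, 2, 4 and 5 or IP replicates 1 and 2 (adjusted p from 0.0580 to 0.0739).

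miR-425-5p, the major arm of the neighbouring hairpin, was depleted in both pulldowns. In BoRed-seq its normalized counts were 371 and 626 in Ctrl and 59.3 and 61.2 in Red, from 16 and 25 reads in Red. Both Red libraries were far below both Ctrl libraries. The log2 enrichment was -3.05 ± 0.44 (SE, n = 2 and 2), that is, 8.27-fold lower (DESeq2 adjusted p = 2.7e-11). In m7G-RIP-seq its normalized counts were 4087, 3761, 4122, 4684 and 4845 in Input replicates 1 to 5. In IP they were 464, 583, 554, 432 and 388. No IP library came near an Input library. The antibody pulldown gave a log2 enrichment of -3.15 ± 0.17 (SE, n = 5 and 5), that is, 8.89-fold lower (DESeq2 adjusted p = 4.6e-75). The assays differed for miR-425-5p by 0.11 ± 0.47 (SE) on the log2 scale, with a 95% interval from -0.82 to 1.03 (z test, adjusted p = 0.883). In m7G-RIP-seq miR-425-5p was number 48 of 670 miRNAs counted from the lowest log2 enrichment, and in BoRed-seq number 55 of 453. It was depleted under all 13 BoRed-seq and all 21 m7G-RIP-seq alternatives, from -4.16 to -1.91 and from -3.62 to -2.82. Leaving out Ctrl replicate 1 gave -4.16 and leaving out Red replicate 1 gave -2.64. Less the median shift of all miRNAs these values were -3.53 and -2.92.

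miR-425-3p, its minor arm, gave no stable call and went with the set of replicates. In BoRed-seq its normalized counts were 20.5 and 29.7 in Ctrl and 59.3 and 48.9 in Red, from 16 and 20 reads in Red. Both Red libraries were above both Ctrl libraries. The log2 enrichment was 1.10 ± 0.61 (SE, n = 2 and 2; 95% interval from -0.09 to 2.30; DESeq2 adjusted p = 0.109), and with total-count factors it was 2.22 (adjusted p = 0.00110). It ranged from 0.08 without Ctrl replicate 1 to 1.39 without Red replicate 2. Less the median shift of all miRNAs these values were 0.71 and 1.21. With Ctrl thinned to the Red depth the log2 enrichment was 0.64, which did not pass. In m7G-RIP-seq its normalized counts were 198, 166, 252, 313 and 324 in Input replicates 1 to 5. In IP they were 68.6, 114, 48.5, 288 and 293. IP replicates 1 to 3 lay below every Input library, whereas IP replicates 4 and 5 lay above Input replicates 1 to 3. Over all 10 libraries the log2 enrichment was -0.62 ± 0.49 (SE, n = 5 and 5; 95% interval from -1.57 to 0.33; DESeq2 adjusted p = 0.269). With the replicate number as a block it was -0.90 and passed the test (adjusted p = 0.0277). Replicates 1 to 3 alone gave -1.42 (adjusted p = 0.00182), and replicates 4 and 5 alone gave -0.22 (adjusted p = 0.472). A term for the 2 sets of replicates gave -0.87 (adjusted p = 0.00769).

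The difference between the assays for miR-425-3p was 1.72 ± 0.78 (SE) on the log2 scale, higher in BoRed-seq, with a 95% interval from 0.20 to 3.25. After adjustment over the 384 miRNAs it did not pass (z test, adjusted p = 0.0656). Total-count factors in both assays gave 2.55, which passed (adjusted p = 0.00414), and the interaction term gave 1.30, which did not (adjusted p = 0.229).

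**Figure D2:**
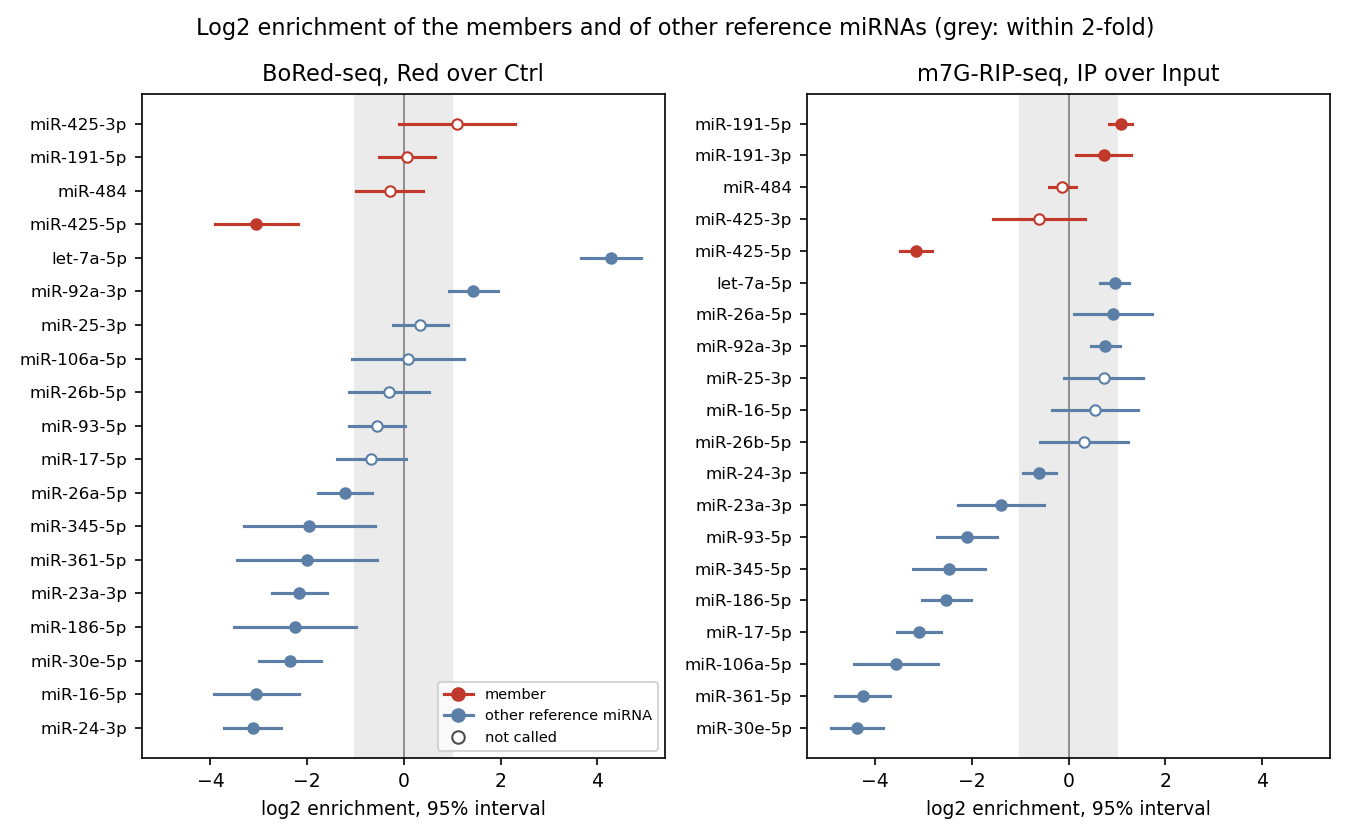
Log2 enrichment (pulldown over control) with its 95% interval for the members tested (red) and the other reference miRNAs tested (blue), open where not called at a DESeq2 adjusted p under 0.05, with the grey band marking changes under 2-fold. miR-425-5p lies far left of the band in both assays at -3.05 and -3.15, and of the red points in m7G-RIP-seq the interval of miR-484 alone stays inside it.

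Counted over the members, 0 of the 4 tested in BoRed-seq were enriched and 1 was depleted, where 32.2% and 27.2% of all 400 miRNAs with an adjusted p were. By edgeR's quasi-likelihood test the members enriched were likewise 0. In m7G-RIP-seq 2 of 5 were enriched and 1 was depleted, where 27.3% and 29.9% of 670 were. The groups did not overlap for 3 of 4 members in BoRed-seq (82.8% of all) and for 2 of 5 in m7G-RIP-seq (42.4% of all). With 4 and 5 members these counts do not set the reference miRNAs apart from other miRNAs. The median log2 enrichment of the members was -0.11 in BoRed-seq, where that of all miRNAs past the filter was -0.32. In m7G-RIP-seq the medians were -0.13 and 0.02.

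Ratios between members within a library do not depend on scaling, and they showed the members moving unequally. miR-191-5p and miR-425-5p come from a shared transcript, yet their ratio of counts rose in both pulldowns. It was 2.72 and 1.25 in Ctrl and 15.5 and 15.1 in Red, an 8.29-fold rise. In m7G-RIP-seq it lay between 6.01 and 6.60 in Input and between 93.6 and 149.2 in IP, an 18.8-fold rise (exact permutation test, two-sided, adjusted p = 0.0106 over 4 ratios, n = 5 and 5). The Input libraries were nearly alike in this ratio, and the groups were far apart. With 2 against 2 libraries the exact test cannot go below 0.33, so no BoRed-seq ratio could pass it.

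The arms of miR-425 also drew together. The ratio of miR-425-5p to miR-425-3p was 18.0 and 20.9 in Ctrl and 1.00 and 1.24 in Red, a 17.4-fold fall. In m7G-RIP-seq it was between 14.9 and 22.6 in Input and between 1.32 and 11.2 in IP, a 4.68-fold fall (exact permutation test, two-sided, adjusted p = 0.0106, n = 5 and 5). Its log2 ratio fell by 1.44 in replicates 1 to 3 and by 3.41 in replicates 4 and 5, so the size of the fall differed between the sets. For miR-191 the ratio of 5p to 3p was 292.4 and 324.2 in Ctrl and 57.0 and 109.9 in Red, on 4 and 3 counts of the minor arm in Red. In m7G-RIP-seq this ratio overlapped between the groups, from 304.0 to 582.8 in Input and from 363.1 to 889.9 in IP (exact permutation test, two-sided, adjusted p = 0.214, n = 5 and 5).

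miR-191-5p and miR-484, whose ratio moved least of the 4 in BoRed-seq, separated in the antibody pulldown. Their ratio was 3.62 and 3.27 in Ctrl and 4.04 and 4.84 in Red, a 1.28-fold rise. In m7G-RIP-seq it was between 3.65 and 5.02 in Input and between 8.87 and 11.3 in IP, a 2.32-fold rise (exact permutation test, two-sided, adjusted p = 0.0106, n = 5 and 5). A pairing of replicate numbers left the values of these 3 m7G-RIP-seq ratios as they were and gave an adjusted p of 0.0833 for each in an exact permutation test, which 5 pairs cannot bring under the threshold.

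**Figure D3:**
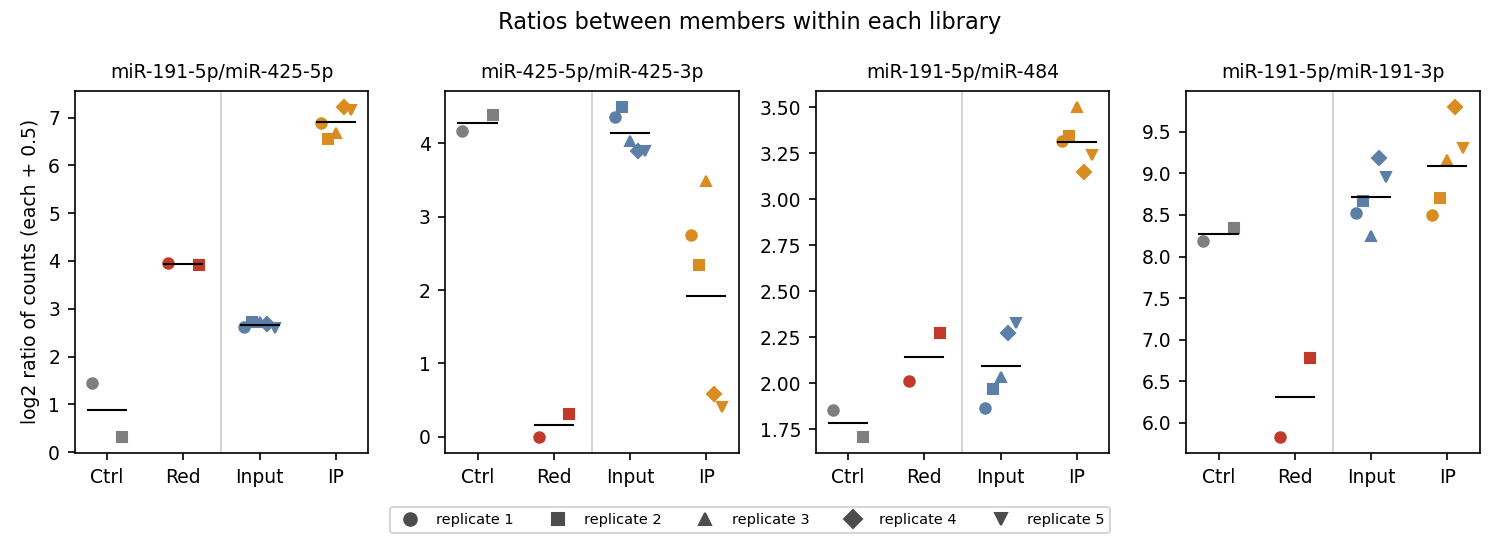
Log2 ratio of the counts of 2 members (0.5 added to each) in every library, with the symbol giving the replicate and a black bar at the group mean. The ratio of miR-191-5p to miR-425-5p rises in both pulldowns, and for miR-425-5p to miR-425-3p IP replicates 4 and 5 lie near the Red libraries while IP replicates 1 to 3 lie between them and Input.

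What total the counts are scaled to moved every member by nearly the same amount. Total-count factors raised the median log2 enrichment of all BoRed-seq miRNAs by 1.08, and total counts without miR-21-5p lowered it by 0.77. In m7G-RIP-seq the shifts were 0.36 upward and 0.36 downward. A change of factors moves nearly all log2 values alike, so the values less that shift return close to those of median-of-ratios scaling by construction and are no further evidence. On these terms miR-484 stayed between -0.28 and -0.26 in BoRed-seq over TMM, total-count and total-count without miR-21-5p factors, and miR-191-5p stayed between 0.09 and 0.11. miR-425-5p stayed between -3.04 and -2.99 on the same terms.

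**Figure D4:**
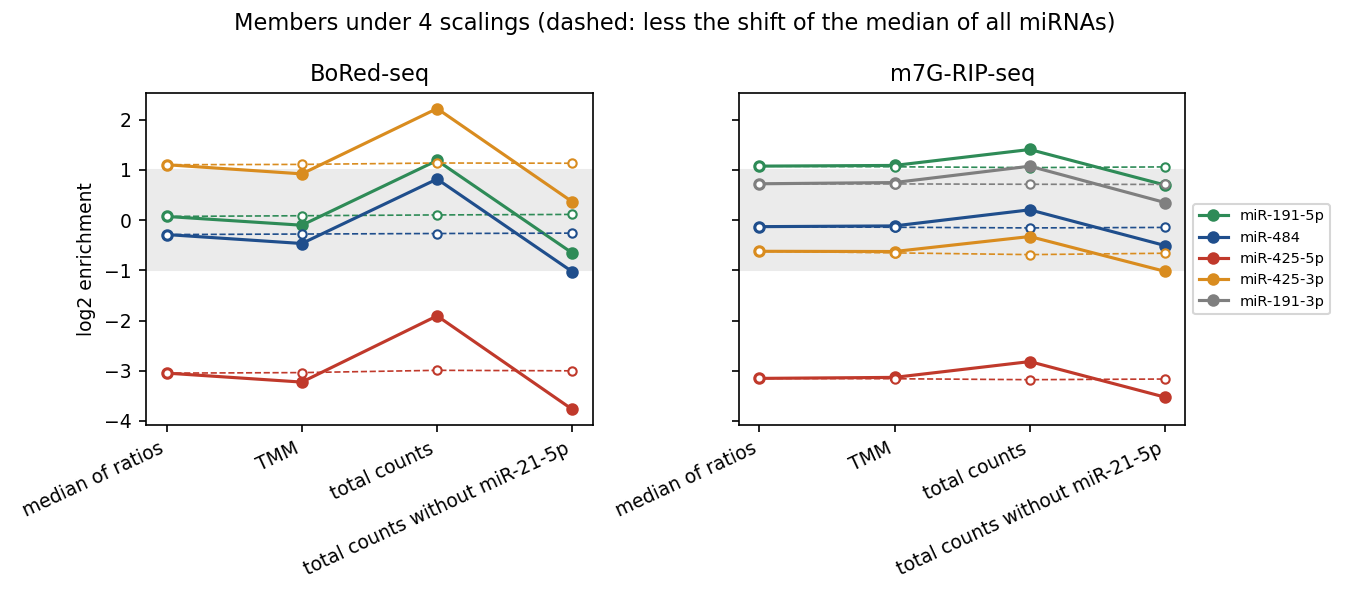
Log2 enrichment of each member under 4 scalings (solid, filled) and after subtracting the shift of the median of all miRNAs (dashed, open), with a grey band for changes under 2-fold. The solid lines move together, by 1.08 at most for the median, and the dashed lines are nearly flat by construction.

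Used as the only reference, the members gave differing accounts of the same tables. With median-of-ratios scaling 129 miRNAs were enriched and 109 depleted in BoRed-seq, and 183 and 200 in m7G-RIP-seq. Scaling to miR-484 gave 136 enriched and 87 depleted of 416 in BoRed-seq, and 201 and 188 of 669 in m7G-RIP-seq. Scaling to miR-191-5p gave 121 and 112 of 425 in BoRed-seq, but 68 enriched and 330 depleted of 669 in m7G-RIP-seq. Scaling to miR-425-5p made nearly every call an enrichment, 278 against 1 of 434 in BoRed-seq and 553 against 19 of 669 in m7G-RIP-seq. This split follows from its own depletion, since each library is divided by the count of that miRNA. Scaling to miR-423-5p could not be done, as it had no counts.

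**Figure D5:**
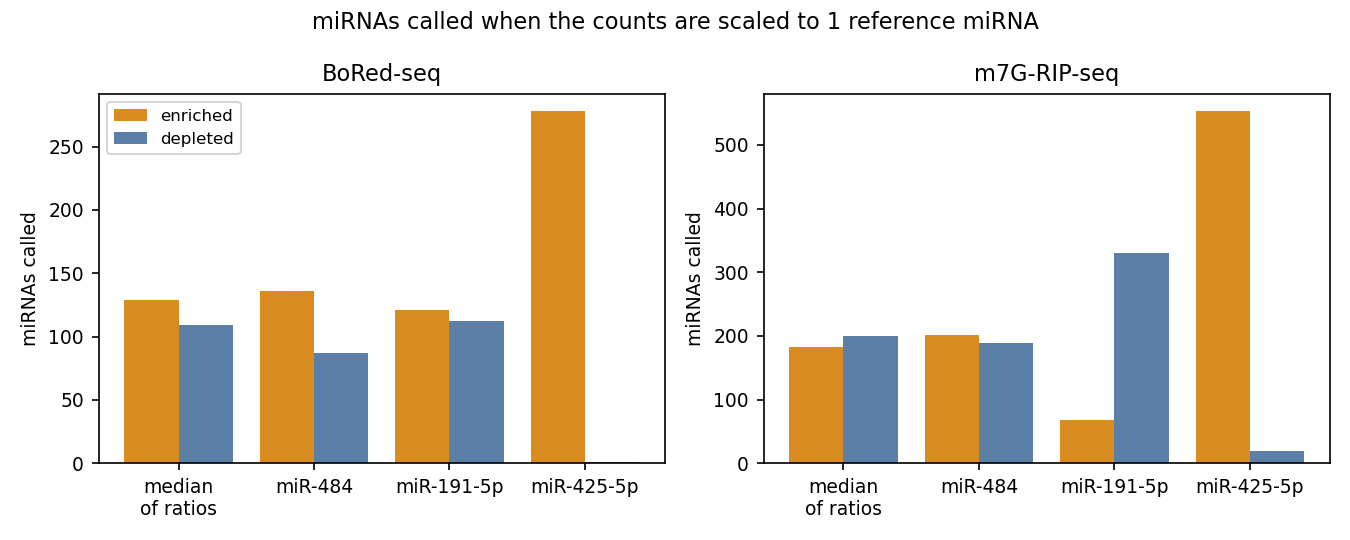
Number of miRNAs called enriched or depleted (DESeq2 adjusted p under 0.05) with the counts scaled by medians of ratios or to the count of a single reference miRNA. Scaling to miR-484 leaves the counts near those of median-of-ratios scaling, while scaling to miR-425-5p gives 278 and 553 enriched.

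In m7G-RIP-seq the 3 major arms varied less among replicates than the median abundant miRNA. In Input the SD of log2 normalized counts was 0.09 for miR-484, 0.13 for miR-191-5p and 0.15 for miR-425-5p, at ranks 17, 33 and 54 of 313 abundant miRNAs counted from the steadiest, whose median SD was 0.32. In IP it was 0.20, 0.10 and 0.25 for the same miRNAs, against a median of 0.52. miR-191-5p was thus number 6 of 313 for steadiness among the IP libraries while being 2.11-fold higher there than in Input. In BoRed-seq, with 2 libraries in each group, the picture differed between Ctrl and Red. In Ctrl miR-425-5p had an SD of 0.53 at rank 138 of 158 and miR-191-5p one of 0.26 at rank 93. Both were above the median of 0.20, while miR-484 was at 0.16 and rank 67. In Red these 3 major arms were all below the median of 0.28. miR-191-5p had an SD of 0.0090 there (rank 4), miR-425-5p one of 0.032 (rank 11) and miR-484 one of 0.19 (rank 61). miR-425-3p was among the least steady in IP, with an SD of 1.17 at rank 284. miR-191-3p had an SD of 0.43 in IP and was below the abundance needed for a rank.

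By likeness over the 10 m7G-RIP-seq libraries, the 2 other miRNAs closest to each major arm are named here. Their values are descriptions, since the libraries fall into Input and IP and share their scaling. miR-425-5p was most like miR-378c and miR-192-5p (Pearson r = 0.997 and 0.995 of log2 normalized counts). Both were also lower in IP, with log2 enrichments of -3.05 and -2.77. miR-191-5p was most like miR-194-3p and miR-877-5p (r = 0.985 and 0.981), whose log2 enrichments in IP were 2.01 and 3.25. miR-484 was most like miR-147b and miR-132-5p (r = 0.852 and 0.828), with log2 enrichments of -0.59 and -0.40.

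Other miRNAs used as references in qPCR spread over a wide range of enrichment. Of 16 such miRNAs, listed from general knowledge with earlier results of these data known, 15 were tested in each assay. The remaining one, miR-103a-3p, was at 0 in all libraries with both of its loci overlapped on the opposite strand. In BoRed-seq 2 were enriched and 8 depleted (32.2% and 27.2% of all miRNAs), with a median log2 enrichment of -1.21. In m7G-RIP-seq 3 were enriched and 9 depleted (27.3% and 29.9% of all), with a median of -1.41. These counts were not tested against those of the members. None of them, 0 in each assay, passed the DESeq2 test of a change under 2-fold, with 2 and 1 under an unadjusted p of 0.05. At the top in both assays was let-7a-5p, a tumour suppressor miRNA, at 4.29 with BoRed-seq and 0.95 with m7G-RIP-seq. The next was miR-92a-3p in BoRed-seq at 1.44 and miR-26a-5p in m7G-RIP-seq at 0.91. At the bottom were miR-24-3p and miR-16-5p in BoRed-seq, at -3.12 and -3.05, and miR-30e-5p and miR-361-5p in m7G-RIP-seq, at -4.38 and -4.26. miR-16-5p, a widely used reference, was thus depleted in BoRed-seq while its log2 enrichment in m7G-RIP-seq was 0.54 ± 0.46 (SE; DESeq2 adjusted p = 0.306), a difference between the assays of -3.59 ± 0.64 (SE; z test, adjusted p = 2.3e-07).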

How the data were processed

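Small RNA of A549 cells was sequenced in 14 libraries, assigned to Ctrl, Red, Input and IP from their labels. The deposited values were raw counts per mature miRNA, in 1 table per assay, which the authors had neither normalized nor pooled. Per the study's methods and labels, Trimmomatic removed adaptors, and reads were placed on GRCh38/hg38 (the methods name STAR, end to end, and the labels Bowtie2) and counted with featureCounts over mature miRNAs of miRBase.

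Enrichment was tested on each whole table with the Wald test of DESeq2 1.42.0 (R 4.3.3, log2 values not shrunken), over miRNAs that reached 10 counts in 2 or more (BoRed-seq) or 5 or more (m7G-RIP-seq) libraries, with median-of-ratios factors and Benjamini-Hochberg adjusted p under 0.05 as the threshold. The level test was DESeq2's lessAbs test at a log2 limit of 1. The difference between assays was a two-sided z test on both enrichments and their SE. Ratios had 0.5 added to each count and were compared by exact permutation. edgeR 4.0.16, other scalings, filters, left-out libraries and blocks were alternatives. Nothing says that replicates were separate cultures, so p-values measure the spread between these libraries, which may be technical. No 2 replicates agreed within sampling noise.

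The main tests were unpaired, and replicate numbers paired m7G-RIP-seq libraries only in alternatives. Deviations from group means correlated above 0.1 in all 5 same-numbered pairs (r from 0.146 to 0.387). Input libraries correlated best with the IP library of their own number in 3 of 5. These deviations were not corrected for the 2 sets of replicates. All 7 members were named. Of the other reference miRNAs, the 2 highest and 2 lowest per assay were named. For each major arm the 2 most similar non-members of mean normalized count of at least 100 were named. miR-16-5p and miR-103a-3p were singled out after their values were seen, and the opposite-strand overlaps were examined after the zeros of miR-423 were seen. The members and lists were chosen with earlier results of these data known. Of 2370 mature names in RefSeq, 2281 matched the count tables, and 6 of 7 members had an entry. Other marker lists fixed for A549 were at most 43.2 CPM for muscle, at 0 for liver, whose miR-122-5p overlaps an opposite strand, and 117 to 1045 CPM for neuron.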

Additional observations from a re-analysis of the deposited data

Results flagged for a closer look

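The normalized count of miR-191-5p in IP replicate 4 was 64474, and it lay apart from the other 4 IP libraries, whose values ended at 57149. The gap made up 0.746 of the range of the group, above the limit of 0.710 that chance passes in about 1 of 20 such groups. The same check was made at both ends for every member with counts, in Input and in IP, so a pass by chance is possible. Without that library the log2 enrichment of miR-191-5p was 1.07, as it was with it.

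The log2 enrichment of miR-191-5p differed between the assays, by -1.002 in BoRed-seq minus m7G-RIP-seq (z test, adjusted p = 0.00682). With total-count factors in both assays the difference was -0.22 (adjusted p = 0.690).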

How the results depend on the processing

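Of 165 member results under alternatives, 132 kept direction and side of the threshold, 12 lost a call, 9 gained one and 12 turned direction. In BoRed-seq miR-191-5p turned to -0.10 with edgeR and with TMM factors, -0.66 with total counts without miR-21-5p, -0.41 with no count filter, -0.14 with at least 10 counts in every library, and -0.51 or -0.69 without Ctrl replicate 1 or 2 (without any library in turn, from -0.69 to 0.44), and miR-484 turned to 0.82 with total counts. Less the median shift of all miRNAs, miR-191-5p was at 0.13 with edgeR and 0.09 with TMM factors. On the same terms it was 0.11 with total counts without miR-21-5p. With no count filter, and with at least 10 counts in every library, it was 0.09. Without Ctrl replicate 1 or 2 it was 0.12 or -0.04. miR-484 with total counts was then at -0.27. In m7G-RIP-seq miR-484 turned to 0.20 with total counts and 0.0432 in replicates 4 and 5 alone. Between assays, miR-484 turned to 0.61 with total counts and miR-425-5p to -0.34 with the interaction term.

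In BoRed-seq, depleted miRNAs numbered 167 with edgeR, 46 with total counts, 167 without miR-21-5p in the total, 71 (as did enriched ones, 71) with at least 10 counts in every library, and 65 with Ctrl thinned to the Red depth, against 109 (129 enriched). Leaving out a library gave 81 to 97 enriched and 67 to 82 depleted (81 enriched without Ctrl replicate 1, 67 depleted without Red replicate 1). Total counts gave 2 members enriched, and total counts without miR-21-5p gave 2 depleted. The BoRed-seq replicate numbers, which no label ties to a shared source, correlated at 0.110 in deviations. The replicate block left every BoRed-seq member call as it was (miR-425-5p -3.03, miR-484 -0.28).

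In m7G-RIP-seq, depleted miRNAs numbered 116 with at least 10 counts in every library, where fewer were tested, against 200. Members enriched numbered 1 with edgeR, total counts without miR-21-5p, no filter and either set of replicates alone, and 1 to 2 with a library left out. Members depleted numbered 2 with total counts without miR-21-5p, the replicate block (miR-425-3p, -0.90) and the term for sets, and 3 in replicates 1 to 3. Members level numbered 0 at a 1.5-fold limit and 2 in replicates 4 and 5. The replicate block changed no other member call. The m7G-RIP-seq log2 ratios of miR-425-5p to miR-425-3p, miR-191-5p to miR-425-5p and miR-191-5p to miR-484 were -2.23, 4.23 and 1.22 under pairing, -1.44, 4.02 and 1.43 in replicates 1 to 3, and -3.41, 4.55 and 0.90 in replicates 4 and 5. None of these tests could pass with so few libraries. The causes were not tested unless given. The ratios and the scaling with miR-423 could not be run, as it had no counts. Counts of 16 to 25 in Red limit both arms of miR-425 in BoRed-seq.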
